A study of Mus musculus with 4 samples.

Results

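Microtubule-associated proteins bind along microtubules or at their ends, while stathmins bind free tubulin dimers and favour microtubule disassembly. The set described here holds 10 genes of these families, chosen by their symbols: the structural proteins Mapt, Map2, Map1b and Map4, the doublecortin family members Dcx and Dclk1, and the stathmins Stmn1, Stmn2, Stmn3 and Stmn4. All 10 were found among the 27998 genes of the Illumina data and among the 12561 genes of the Nanopore data, where they had 64 of the 31986 listed isoforms. In developing brain, radial glia divide and give rise to neurons, and the neurons that leave the ventricular zone build axons and dendrites on bundled microtubules. Several of these proteins are used as marks of young neurons, and alternative first exons and splice sites are known for most of the genes.

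The cells came from 1 C57BL/6 mouse at embryonic day 18, from its hippocampus, cortex and sub ventricular zone, without genetic or drug treatment. Cells were captured with the 10x Genomics Chromium v2 system in 1 emulsion that was divided into aliquots of 190 and 951 cells, and Illumina short reads and Nanopore long reads were made from the same cDNA of each, giving 4 libraries. The 2 aliquots are technical replicates of 1 cell suspension, so every p-value below measures the spread between aliquots and not the spread between animals. Counts are unique molecular identifiers (UMIs), each standing for 1 captured RNA molecule; Illumina UMIs were counted per gene and Nanopore UMIs per isoform. A Nanopore UMI entered the data only where its exons matched 1 annotated isoform.

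Of the 1141 cells, 186 and 935 had at least 1400 Illumina genes and were kept, with 1809081 and 8295650 Illumina UMIs and 993220 and 4889148 Nanopore UMIs. The aliquots shared 13 barcodes, of which 12 were kept in each, and 3 and 4 kept cells were called doublets. Cells were clustered on Illumina counts without the 10 genes and without the lists of related genes used below, 83 genes in all, and the clusters took the names of 7 classes from marker genes. Each class had cells of both aliquots, from 47 and 235 immature glutamatergic cells to 20 and 88 radial glia and 4 and 13 Cajal-Retzius cells, the last of which were too few to be tested. Radial glial markers summed to 14935 and 17472 CPM, UMI counts scaled to the same total in every class, in radial glia and to at most 2921 CPM in the other classes. The class also held intermediate progenitor markers at 1066 and 1131 CPM, and when the 83 genes were allowed into the clustering 69 of its 108 cells were named radial glia again, while 37 were named intermediate progenitor and 2 cycling radial glia. In that clustering 48 of the 282 immature glutamatergic cells also took the name intermediate progenitor. Of the 171 mature GABAergic cells, 27 were named immature GABAergic. All 6 microglial markers, at 312 CPM, and all 4 pericyte markers, at 132 CPM, were found in the radial glia of the larger aliquot, against 0 of 6 and 1 of 4 in those of the smaller one. All 4 erythroid markers were found in every class, at 553 to 782 CPM. The 6 class comparisons below were also run without the 3 cells that held at least 3 microglial markers, all of them radial glia. They then called 8, 9, 2, 1, 3 and 5 of the genes in the order of the text. The comparison of the mature classes had 4 with those cells. The shares of all genes in the fits without them are not given, so these counts are not read as results about the 10 genes.

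Isoform structures and sequences come from the Gencode vM21 annotation of GRCm38, in which all 64 isoforms were found. Sequences are written 5′ to 3′ on the strand of the gene, and those shown are the stretches by which the main isoforms of 3 of the genes are told apart.

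For Dcx, Dcx-203 and Dcx-204 differ at 1 splice donor on the minus strand of the X chromosome, where Dcx-203 keeps the 15 bases in capitals (chrX:143875755-143875769). The lower case letters on either side are shared with Dcx-204, whose junction is shown for comparison.
Dcx-203: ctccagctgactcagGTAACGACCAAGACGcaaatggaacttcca
Dcx-204: ctccagctgactcagcaaatggaacttcca

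For Dclk1, the short transcript Dclk1-212 starts at its own first exon, chr3:55461728-55462082 on the plus strand, 219202 bases downstream of the start of Dclk1-203. Its coding sequence is 168 bases long and is shown whole, because its share of the Dclk1 UMIs differed between classes. Capitals mark the coding bases of its own first exon (chr3:55462064-55462082), and the rest lies in 2 exons whose coding parts Dclk1-203 shares.
Dclk1-212: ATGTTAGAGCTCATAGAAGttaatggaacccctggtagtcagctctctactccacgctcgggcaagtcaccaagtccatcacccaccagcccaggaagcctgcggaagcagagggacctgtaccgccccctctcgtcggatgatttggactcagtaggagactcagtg

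For Stmn4, Stmn4-203 differs from the main isoform Stmn4-201 by an 81-base coding exon (chr14:66356269-66356349, plus strand), and Stmn4-202 by another end of the coding sequence. In the first line capitals mark the 81-base exon. In the other lines they mark the last coding bases before the stop codon, which lie at chr14:66361075-66361131 in Stmn4-201 and at chr14:66358679-66358696 in Stmn4-202.
Stmn4-203: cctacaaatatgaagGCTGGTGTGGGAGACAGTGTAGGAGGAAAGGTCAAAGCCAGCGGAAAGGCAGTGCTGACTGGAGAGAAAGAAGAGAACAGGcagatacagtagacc
Stmn4-201: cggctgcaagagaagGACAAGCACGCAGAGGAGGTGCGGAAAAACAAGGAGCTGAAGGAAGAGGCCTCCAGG
Stmn4-202: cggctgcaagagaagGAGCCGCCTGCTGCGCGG

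The first question was how the level of each gene differed between the cell classes. Illumina counts were summed per class and aliquot, and 6 classes with 12 sums entered 1 edgeR quasi-likelihood fit over 8646 genes, in which all 10 genes passed the filter on low counts. Levels are given as Illumina CPM, the share of all UMIs of the class, in the smaller and the larger aliquot in that order, and differences as log2 fold changes with their standard error (SE) and Benjamini-Hochberg adjusted p over all 8646 genes. Against radial glia, 8 of the 10 genes were higher and 0 were lower in mature glutamatergic cells, while 16.5% of all genes were called higher and 17.6% lower. In mature GABAergic cells 9 were higher and 0 lower, against 15.1% and 16.5% of all genes. The median log2 fold change of the 10 genes was 2.46 and 2.15, and that of all genes was -0.03 in both comparisons.

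Mapt (chr11:104231390-104332090, plus strand) encodes tau, which binds along axonal microtubules. It had 154 and 64.1 CPM in radial glia, 80.5 and 120 in cycling radial glia, 558 and 602 in immature glutamatergic and 1447 and 1520 in mature glutamatergic cells. In the GABAergic cells it had 643 and 578 CPM in the immature and 696 and 972 in the mature class. The mature glutamatergic cells stood above all other classes in both aliquots, mature GABAergic cells came next, and the aliquots of radial glia and cycling radial glia overlapped. Mapt was 15.3-fold higher in mature glutamatergic cells than in radial glia (log2 3.94, SE 0.40; edgeR adjusted p = 0.000123) and 8.33-fold higher in mature GABAergic cells (log2 3.06, SE 0.39; adjusted p = 0.000605). The log2 difference of the glutamatergic cells was 4.57 without the radial glia of the smaller aliquot and 3.31 without those of the larger one, and that of the GABAergic cells 3.67 and 2.43. A median mature glutamatergic cell held 14 Illumina UMIs of Mapt and a median radial glial cell 0.

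Map2 (chr1:66175273-66442583, plus strand), the main microtubule-associated protein of dendrites, differed less between classes. It had 68.9 and 83.8 CPM in radial glia, 145 and 116 in cycling radial glia, 315 and 250 in mature glutamatergic cells and 371 and 283 in mature GABAergic cells. The 4 highest classes, mature GABAergic, Cajal-Retzius, mature glutamatergic and immature glutamatergic, overlapped each with the next. Immature GABAergic cells (154 and 189 CPM), cycling radial glia and radial glia lay below them without overlap. Against radial glia, Map2 was 3.60-fold higher in mature glutamatergic cells (log2 1.85, SE 0.21; edgeR adjusted p = 8.9e-09) and 3.91-fold higher in mature GABAergic cells (log2 1.97, SE 0.22; adjusted p = 7.6e-09).

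Map1b (chr13:99421446-99516540, minus strand), a protein of growing axons, had 458 and 400 CPM in radial glia, 551 and 750 in cycling radial glia, 1266 and 1329 in immature glutamatergic cells and 2385 and 2734 in mature glutamatergic cells. The immature GABAergic cells held 1363 and 1647 CPM and the mature GABAergic cells 1579 and 1541, so these classes overlapped. Neither aliquot of any other class reached the mature glutamatergic cells. Map1b was 6.10-fold higher there than in radial glia (log2 2.61, SE 0.16; edgeR adjusted p = 7.5e-15) and 3.53-fold higher in mature GABAergic cells (log2 1.82, SE 0.16; adjusted p = 3.2e-11).

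Map4 (chr9:109931460-110083955, plus strand), the member of the family that is known from many dividing and non-neuronal cells, was the gene with the fewest UMIs, 509 in all. It had 44.6 and 35.0 CPM in radial glia, 77.4 and 54.0 in mature glutamatergic and 26.5 and 62.1 in mature GABAergic cells, and below the mature glutamatergic cells each of the 5 remaining tested classes overlapped with its neighbour in rank. The difference from radial glia was not called for mature glutamatergic cells (log2 0.75, SE 0.31; edgeR adjusted p = 0.0618) or for mature GABAergic cells (log2 0.44, SE 0.36; adjusted p = 0.380). With the aliquot as a block in the fit, the first of them was called (log2 0.70; adjusted p = 0.0154), and over 13 alternatives its adjusted p lay between 0.0154 and 0.527.

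Dcx (chrX:143855842-143933311, minus strand) encodes doublecortin, which stabilises microtubules in migrating neurons. It had 60.8 and 65.0 CPM in radial glia, 155 and 185 in cycling radial glia, 433 and 450 in immature glutamatergic and 304 and 319 in mature glutamatergic cells. In GABAergic cells it had 351 and 340 CPM in the immature and 584 and 510 in the mature class. No neighbouring classes overlapped in the order of Dcx, which ran from mature GABAergic through immature glutamatergic, immature GABAergic, mature glutamatergic, cycling radial glial and Cajal-Retzius cells (118 and 95.7 CPM) to radial glia. Dcx was 4.96-fold higher in mature glutamatergic cells than in radial glia (log2 2.31, SE 0.19; edgeR adjusted p = 1.2e-11) and 8.22-fold higher in mature GABAergic cells (log2 3.04, SE 0.20; adjusted p = 5.5e-14). When the cells were clustered with all variable genes, so that some of the radial glia became intermediate progenitors, these differences were 2.98 and 3.71.

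Dclk1 (chr3:55242364-55539068, plus strand), doublecortin-like kinase 1, had a different order. Radial glia held 166 and 158 CPM, above cycling radial glia with 129 and 99.0 and immature glutamatergic cells with 128 and 146, while mature glutamatergic cells held 206 and 195 and mature GABAergic cells 312 and 325. Dclk1 was 1.92-fold higher in mature GABAergic cells than in radial glia (log2 0.94, SE 0.20; edgeR adjusted p = 0.000295). The difference of mature glutamatergic cells was not called (log2 0.33, SE 0.19; adjusted p = 0.187) but was with the aliquot as a block (log2 0.33; adjusted p = 0.0489; 0.0489 to 0.729 over 14 alternatives), and on the Nanopore counts it had the opposite sign (log2 -0.39).

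Stmn1 (chr4:134468320-134473843, plus strand), the stathmin that many cell types express and that phosphorylation inactivates, had 3322 and 2479 CPM in radial glia, 5777 and 6035 in cycling radial glia, 6410 and 6793 in immature glutamatergic, 8116 and 7756 in mature glutamatergic and 6547 and 6394 in mature GABAergic cells. Radial glia were lowest and mature glutamatergic cells highest in both aliquots without overlap. Stmn1 was 2.79-fold higher in mature glutamatergic cells than in radial glia (log2 1.48, SE 0.11; edgeR adjusted p = 4.5e-13) and 2.16-fold higher in mature GABAergic cells (log2 1.11, SE 0.11; adjusted p = 4.0e-10).

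Stmn2 (chr3:8509360-8561606, plus strand), Stmn3 (chr2:181306459-181314500, minus strand) and Stmn4 (chr14:66344296-66361680, plus strand) are the neuronal stathmins, which are anchored to membranes in growing neurites. Stmn2 had 288 and 81.2 CPM in radial glia, 1264 and 1305 in immature glutamatergic, 2782 and 3019 in mature glutamatergic and 1844 and 1682 in mature GABAergic cells. Stmn3 had 271 and 161 CPM in radial glia, 721 and 810 in immature glutamatergic, 1480 and 1353 in mature glutamatergic and 1088 and 1091 in mature GABAergic cells. Both were lower in radial glia than in any neuronal class in both aliquots. Stmn4 had 117 and 50.4 CPM in radial glia, 548 and 516 in immature glutamatergic, 625 and 693 in mature glutamatergic and 524 and 305 in mature GABAergic cells. It too was lowest in radial glia and cycling radial glia. Its levels in the aliquots of mature GABAergic cells lay far apart, overlapping with immature glutamatergic cells.

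Among the neuronal stathmins Stmn2 had the largest fold against radial glia on the Illumina counts, 17.7-fold in mature glutamatergic cells (log2 4.14, SE 0.54; edgeR adjusted p = 0.00124) and 10.2-fold in mature GABAergic cells (log2 3.35, SE 0.52; adjusted p = 0.00353). Stmn4 was 9.01-fold higher (log2 3.17, SE 0.40; adjusted p = 0.000316) in mature glutamatergic cells and higher by log2 2.38 (SE 0.41; adjusted p = 0.00229) in mature GABAergic cells, and Stmn3 6.88-fold (log2 2.78, SE 0.18; adjusted p = 6.1e-14) and 5.05-fold (log2 2.34, SE 0.18; adjusted p = 5.5e-12). The size of the Stmn2 and Stmn4 folds depended on the radial glia used. For Stmn2 the log2 difference of the glutamatergic cells was 5.19 without the radial glia of the smaller aliquot and 3.38 without those of the larger one, and that of the GABAergic cells 4.38 and 2.58. For Stmn4 the differences without the radial glia of the larger aliquot were 2.53 and 1.73. Without the called doublets, 2 of which were radial glia of the smaller aliquot and 1 of the larger, Stmn2 fell to 138 and 75.9 CPM in radial glia and its log2 differences were 4.95 and 4.16.

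Mapt, Stmn2 and Stmn4 were higher in the radial glia of the smaller aliquot, and so were mature and immature glutamatergic markers. Mature glutamatergic markers summed to 588 and 342 CPM in the radial glia of the smaller and the larger aliquot and to 3812 and 3879 CPM in mature glutamatergic cells. Immature glutamatergic markers summed to 1349 and 1181 CPM in those radial glia. Other neuronal lists did not follow, with 664 and 679 CPM for immature GABAergic, 203 and 214 for mature GABAergic and 16.2 and 22.2 for Cajal-Retzius markers. The part of neuronal markers in the levels was not tested.

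**Figure D1:**
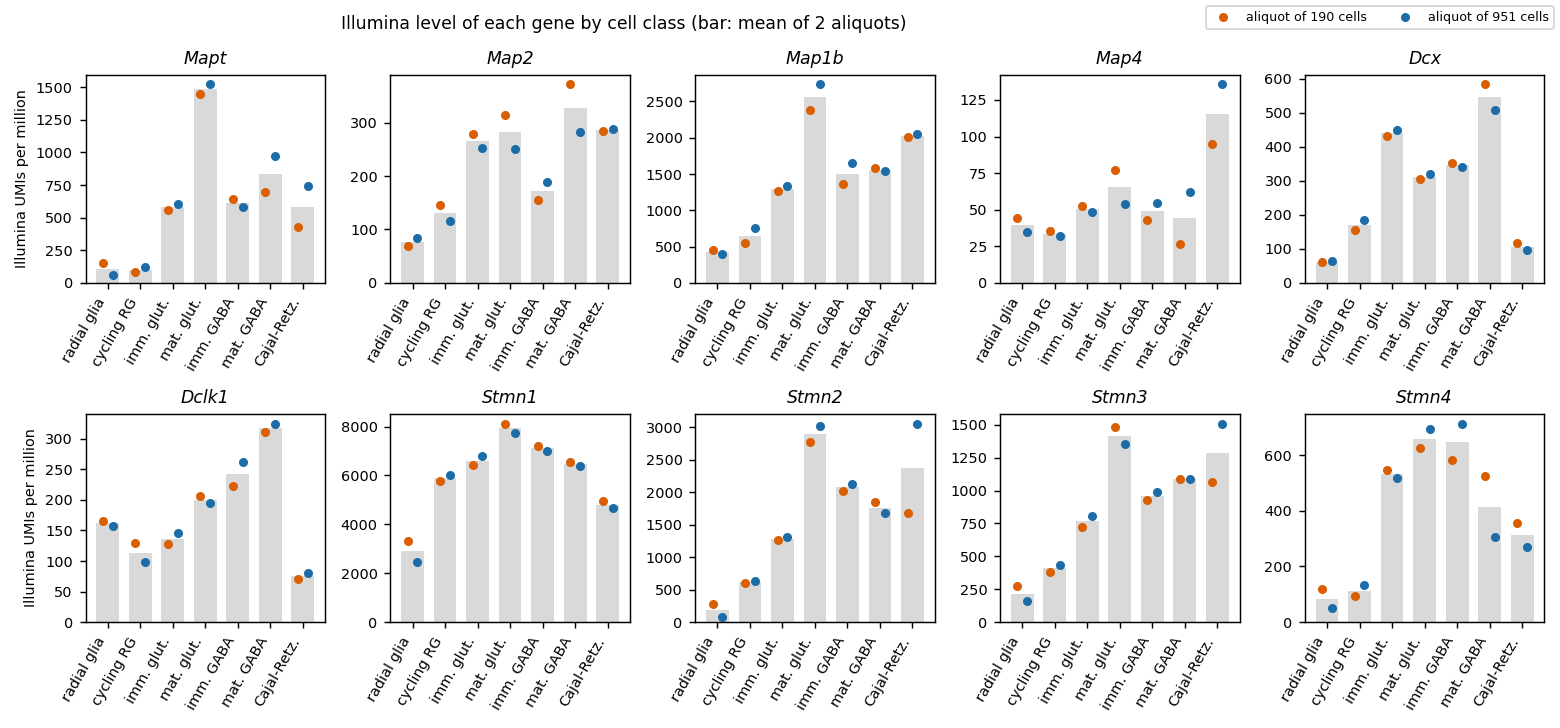
Illumina level of the 10 genes in CPM, 1 panel per gene, in the 7 cell classes; points are the 2 aliquots and the bar is their mean. By their means, Mapt, Map1b and the 4 stathmins are highest in mature glutamatergic cells (for Mapt 1447 and 1520 CPM) and Map2, Dcx and Dclk1 in mature GABAergic cells, and Map2, Map1b, Dcx and the 4 stathmins are lowest in radial glia.

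The next comparison was between the mature and immature classes of glutamatergic and of GABAergic neurons, and here few of the genes passed the test. Among the genes highest against all other cells were Ebf1, Isl1 and Foxp2 in immature GABAergic and Sst, Maf and Nxph1 in mature GABAergic cells. Between the GABAergic classes, stage and neuron type therefore cannot be told apart. Between mature and immature glutamatergic cells, 2 were higher and 0 lower, against 3.17% and 2.29% of all genes. Map1b rose 2.06-fold (log2 1.04, SE 0.15; edgeR adjusted p = 1.1e-05) and Stmn3 1.92-fold (log2 0.94, SE 0.17; adjusted p = 0.000248). The median log2 difference of the 10 genes was 0.49, and that of all genes -0.01. Stmn2 and Mapt had larger differences with more spread, log2 1.24 (SE 0.46; adjusted p = 0.258) and 1.41 (SE 0.34; adjusted p = 0.0618).

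The classes of 1 aliquot share a library, and in the fit with the aliquot as a block 6 of the genes were higher and 1 lower in mature glutamatergic cells, against 8.21% and 6.4% of all genes. The added calls were Mapt (log2 1.41; edgeR adjusted p = 0.00294; 6.25e-11 to 0.330 over 14 alternatives), Stmn2 (log2 1.23; 0.0375; 3.03e-07 to 0.660), Dclk1 (log2 0.55; 0.000981; 0.000981 to 0.698), Stmn1 (log2 0.32; 0.000585; 0.000585 to 0.582) and, lower, Dcx (log2 -0.44; 0.000963; 0.000963 to 0.921). Leaving out the radial glia of either aliquot, which are not in this comparison but are in the fit, changed the number of calls. The share of all genes in those fits is not given.

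Between mature and immature GABAergic cells, 1 gene was higher and 0 lower, against 1.47% and 1.21% of all genes. It was Map2, 1.72-fold higher in the mature cells (log2 0.78, SE 0.21; edgeR adjusted p = 0.0323), and this call was lost when any 1 of the 4 sums compared was left out (adjusted p 0.0732 to 0.247), with DESeq2 (0.337), without the filter on low counts (0.0751), after clustering with all variable genes (0.305) and on Nanopore counts (0.467); over all 14 alternatives it ranged from 0.0045 to 0.467. With the aliquot as a block 2 genes were higher and 0 lower, against 2.76% and 2.64%, the second being Dcx (log2 0.57; adjusted p = 0.00169; 0.00169 to 0.640 over 14 alternatives). Without the radial glia of either aliquot there were calls in both directions, and the share of all genes in those fits is not given. The median of the 10 genes was 0.05 and that of all genes 0.

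The difference of these steps, named maturation steps after the classes, was tested as such, GABAergic minus glutamatergic. There 1 gene was called in each direction against 1.13% higher and 1.52% lower among all genes. Map1b was 2.06-fold higher in mature than in immature glutamatergic cells and changed by log2 -0.02 in the GABAergic ones, a difference of -1.06 (SE 0.21; edgeR adjusted p = 0.00191). Dcx was lower by log2 -0.44 in mature glutamatergic and higher by 0.59 in mature GABAergic cells, a difference of 1.03 (SE 0.25; adjusted p = 0.0112). The other 8 genes were not called, with differences of -1.54 for Stmn2 (adjusted p = 0.451), -1.15 for Stmn4 (0.430), -0.99 for Mapt (0.518), -0.82 for Stmn3 (0.0558), -0.52 for Stmn1 (0.0533), -0.43 for Map4 (0.880), -0.29 for Dclk1 (0.815) and 0.63 for Map2 (0.364).

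With the aliquot as a block the calls in this test were Dcx (log2 1.01; edgeR adjusted p = 2.8e-06) and, lower, Map1b (-1.10; 4.4e-13), Stmn3 (-0.81; 1.6e-05) and Stmn1 (-0.52; 0.000377), against 2.35% higher and 3.47% lower among all genes. Over 17 alternatives the Map1b difference lay between -1.22 and -0.82 and was called in 15, the exceptions being the clustering with all variable genes (adjusted p = 0.0781) and the fit without the immature GABAergic cells of the larger aliquot (0.0603). The 17 include fits without a sum of radial glia or cycling radial glia, which are not in this contrast. Map1b and Dcx were called in each of those fits. The Dcx difference lay between 0.78 and 1.10 and was called in 11 of the 17. It was not called on Nanopore counts (0.653), after clustering with all variable genes (0.0513), or without the immature GABAergic (0.0860) or immature glutamatergic (0.0895) cells of the larger aliquot or the mature glutamatergic cells of the smaller (0.0977) or the larger one (0.0689). Stmn3 was called in 5 of the 17 (1.6e-05 to 0.285), Stmn1 in 4 (0.000377 to 0.386), Mapt (0.0145 to 0.801), Stmn2 (3.3e-07 to 0.746) and Stmn4 (0.0125 to 0.701) in 3 each and the other 3 genes in 0.

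Between the mature classes themselves, 2 genes were higher and 2 lower in GABAergic than in glutamatergic cells, against 3.96% and 5.78% of all genes. Dcx was 1.66-fold higher (log2 0.73, SE 0.17; edgeR adjusted p = 0.00346) and Dclk1 1.52-fold higher (log2 0.61, SE 0.19; adjusted p = 0.0308) in GABAergic cells. Dcx and Dclk1 are the doublecortin family members of the set described here, and values of other family members are not given. Map1b was 1.73-fold lower (log2 -0.79, SE 0.15; adjusted p = 0.000284) and Stmn1 1.29-fold lower (log2 -0.36, SE 0.11; adjusted p = 0.0202). The call of Map1b held in all 14 alternatives, with log2 differences from -0.93 to -0.70.

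The other calls between the mature classes were less firm. Dcx was not called without the mature glutamatergic cells of the smaller aliquot (edgeR adjusted p = 0.0930) or of the larger one (0.0605), nor on Nanopore counts (0.314), and over 14 alternatives ranged from 8.77e-07 to 0.314. Dclk1 and Stmn1 were not called when any of the 4 sums compared was left out, nor with DESeq2 (adjusted p = 0.236 and 0.205). Without the filter on low counts neither was called (edgeR adjusted p = 0.133 and 0.0543). Dclk1 was also not called at resolution 1.2 (0.0642), with all variable genes (0.0670), or without shared barcodes (0.0521) or microglial-marker cells (0.0627). Of 14 alternatives, Dclk1 was called in 4 and Stmn1 in 8. Leaving out 1 sum changed the number of calls, with the most without the radial glia of either aliquot. The share of all genes in those fits is not given. With the aliquot as a block Mapt (log2 -0.83; adjusted p = 0.0396; 6.39e-05 to 0.506 over 14 alternatives) and Stmn3 (log2 -0.44; 0.000374; 0.000374 to 0.313) were also lower in GABAergic cells. The median of the 10 genes was -0.41 and that of all genes -0.01.

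The class named cycling radial glia was set against radial glia. The 8 proliferation genes that named it summed to 6401 and 5121 CPM in it and to 3237 and 2226 in radial glia. Radial glial markers stood at 2921 and 2532 CPM, against 14935 and 17472. Immature GABAergic (1575 and 1890 against 664 and 679 CPM) and immature glutamatergic markers (2428 and 2383 against 1349 and 1181) were higher. Intermediate progenitor markers (802 and 1027 against 1066 and 1131) were lower. Oligodendrocyte precursor markers were higher (135 and 161 against 72.9 and 64.1 CPM). Which cells the class holds was not tested. In cycling radial glia 5 genes were higher and 0 lower, against 6.16% and 5.27% of all genes, and the median of the 10 was 0.71 against 0.02 for all genes. Dcx was 2.75-fold (log2 1.46, SE 0.20; edgeR adjusted p = 2.4e-06), Stmn1 2.09-fold (log2 1.06, SE 0.11; adjusted p = 5.9e-09) and Stmn3 2.01-fold higher (log2 1.01, SE 0.18; adjusted p = 0.000161). Map2 was 1.66-fold (log2 0.73, SE 0.22; adjusted p = 0.0259) and Map1b 1.57-fold higher (log2 0.65, SE 0.15; adjusted p = 0.00366).

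Several of these calls were lost under alternatives. When the cells were clustered with all variable genes, Map1b was not called (edgeR adjusted p = 0.137) and the log2 difference of Dcx was 2.06. Without the larger aliquot's cycling radial glia and without its radial glia, Map1b was again not called (log2 0.35 and 0.58). Map2 was not called without any of the 4 sums (log2 0.65 to 0.95), nor Stmn3 without the larger aliquot's radial glia (log2 0.66). On Nanopore counts Dcx (log2 2.48; adjusted p = 0.0630) was not called. With the aliquot as a block Stmn2 was also higher (log2 2.33; adjusted p = 0.0145; 9.85e-16 to 0.246 over 14 alternatives) and Dclk1 lower (log2 -0.54; 0.0173; 0.0173 to 0.751).

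**Figure D2:**
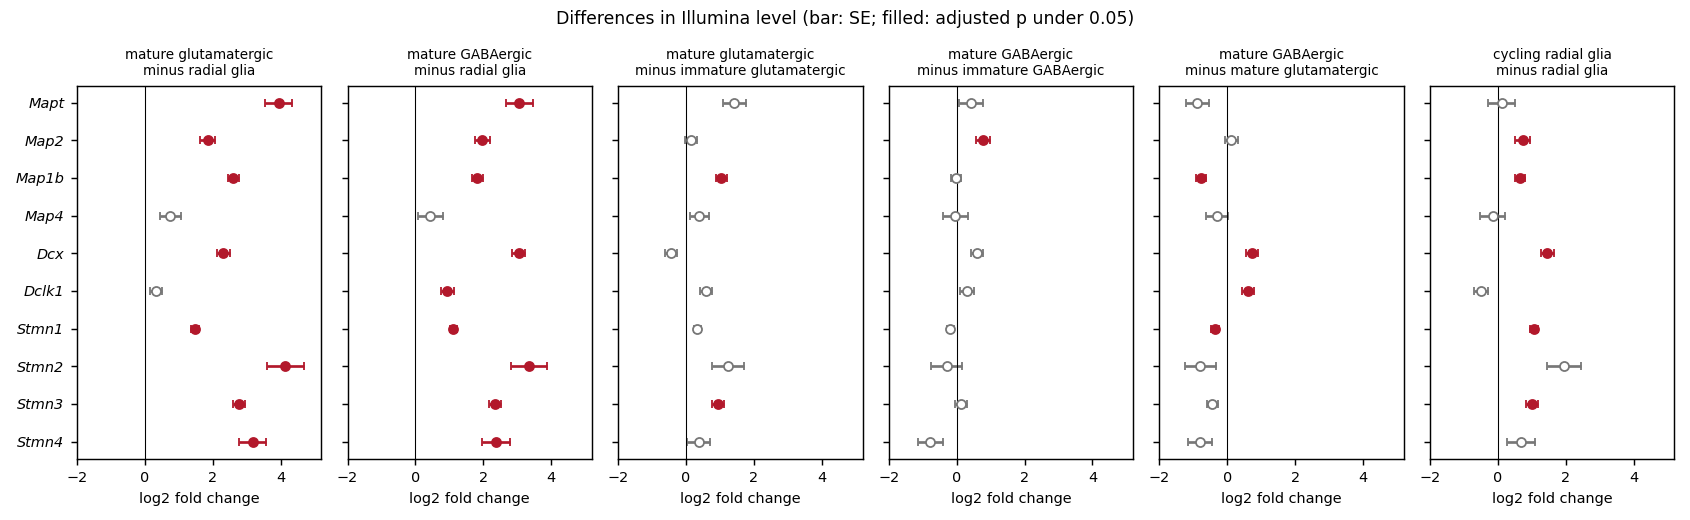
Log2 difference in Illumina level of the 10 genes in the 6 class comparisons, 1 panel each, with the standard error as bar; filled points passed an adjusted p of 0.05 in edgeR. For the mature classes against radial glia the points lie to the right, from 0.33 for Dclk1 to 4.14 for Stmn2 in mature glutamatergic cells. For cycling radial glia against radial glia Dclk1 and Map4 lie to the left. The maturation steps and the comparison of the mature classes hold few filled points.

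The second question was how the isoform-assigned Nanopore UMIs of each gene stood to all its Illumina UMIs from the same cells. Nanopore UMIs that matched no single isoform were not counted, so the values below are not the level of all long reads. Counts of each library were summed over the kept cells, and 9855 genes were tested between the 2 Nanopore and the 2 Illumina libraries. Relative to all genes, 4 of the 10 genes were higher on Nanopore and 4 lower, against 20.2% and 30.3% of all genes. The numbers of UMIs behind this were 64386 Illumina and 53509 Nanopore UMIs for Stmn1, which had the most, and 509 and 79 for Map4.

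The stathmins were higher on Nanopore. Nanopore UMIs amounted to 76.7% and 84.5% of the Illumina UMIs for Stmn1, 81.1% and 87.1% for Stmn2, 80.2% and 88.5% for Stmn3 and 74.9% and 82.2% for Stmn4, where all genes together gave 54.9% and 58.9%. The log2 differences lay between 0.59 (SE 0.10; edgeR adjusted p = 0.00547) for Stmn4 and 0.70 (SE 0.09; adjusted p = 0.00189) for Stmn3. All 4 were above the line of all genes in both aliquots.

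The 4 lower genes were Dcx, Map2, Map4 and Dclk1. For Dcx, Nanopore gave 6.36% and 6.95% of the Illumina UMIs (log2 -2.94, SE 0.12; edgeR adjusted p = 6.6e-05), for Map2 7.44% and 9.74% (log2 -2.58, SE 0.13; adjusted p = 0.000109), for Map4 11.2% and 16.5% (log2 -1.82, SE 0.18; adjusted p = 0.00087) and for Dclk1 33.8% and 27.8% (log2 -0.79, SE 0.12; adjusted p = 0.00373). Map1b and Mapt were not called. Map1b kept 55.4% and 57.9% (log2 0.12, SE 0.12, edgeR adjusted p = 0.441), and Mapt 54.1% and 57.8% (log2 0.11, SE 0.12, edgeR adjusted p = 0.506). With the aliquot as a block Map1b was called higher (log2 0.12; adjusted p = 0.0356; 0.0356 to 0.976 over 8 alternatives). The median of the 10 genes was 0.11 and that of all genes -0.04.

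The differences between classes were wider on Nanopore counts for most of the genes. Between mature glutamatergic cells and radial glia the log2 difference was 5.84 for Mapt, 5.80 for Stmn2, 4.93 for Stmn4, 4.06 for Dcx, 3.67 for Stmn3, 3.51 for Map1b, 2.66 for Map2 and 1.78 for Stmn1. Between mature GABAergic cells and radial glia it was 4.9998 for Mapt, 4.97 for Stmn2, 4.71 for Dcx, 3.88 for Stmn4, 3.19 for Stmn3, 3.10 for Map2 and 2.71 for Map1b. Few Nanopore UMIs stood behind the radial glial end, for Dcx 0 and 2 UMIs in the smaller and the larger aliquot.

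Tested in 1 fit over both platforms, the difference in fold between platforms was called for 0 of the 10 genes at an edgeR adjusted p of 0.05, against 0% of all genes higher and 0.0536% lower. At an unadjusted p under 0.05 there were 5 of the 10. The share of all genes at that threshold is not given, so this count is not read as a result about the 10 genes. The largest was Mapt with log2 1.84 (SE 0.52; adjusted p = 0.450). Both platforms measured the same cells, and with the class and aliquot of the sums as a block 6 genes were called with the larger fold on Nanopore, against 0.349% of all genes higher and 0.188% lower. They were Mapt (log2 1.65; edgeR adjusted p = 0.00212), Map1b (0.95; 0.00233), Stmn2 (1.35; 0.00672), Stmn3 (0.75; 0.00842), Stmn4 (1.60; 0.0213) and Stmn1 (0.30; 0.0302). With the aliquot alone as a block only Map1b was called (log2 0.97; adjusted p = 0.0274), and the adjusted p of the other 5 was 0.242 to 1. Of the 1283 genes called higher in mature glutamatergic cells and tested in this fit, 990 had the larger fold on Nanopore, with a median difference of 0.27, and the median of the 10 genes was 0.89 against 0.08 for all genes.

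**Figure D3:**
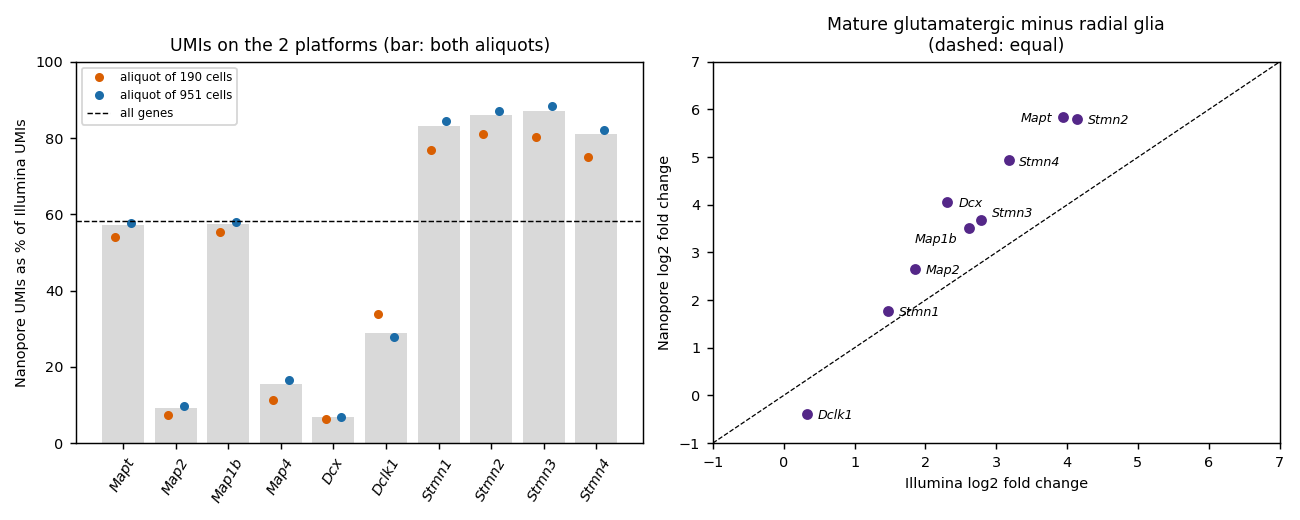
Left, Nanopore UMIs as percent of Illumina UMIs for each gene, with 1 point per aliquot and the value of all genes as a dashed line; right, log2 difference between mature glutamatergic cells and radial glia on Nanopore against Illumina counts, with equality as a dashed line. The 4 stathmins lie above the all-gene line and Dcx, Map2, Map4 and Dclk1 below it, and of the 9 genes tested on both platforms all except Dclk1 lie above equality at the right; Map4 failed the filter on Nanopore counts.

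The third question was which isoforms made up the Nanopore UMIs. Shares are shares of the UMIs that matched an annotated isoform, given with exact binomial 95% intervals, which cover counting error only. For the structural proteins with many UMIs, 1 isoform prevailed. Mapt-204, with 10 exons, 5253 bases and a coding length of 1116, held 96.4% of 4532 UMIs, and Map1b-201, with 7 exons, 11808 bases and a coding length of 7392, held 99.1% of 9332. The share of Mapt-204 was 96.8% in mature glutamatergic, 96.9% in immature glutamatergic, 96.8% in immature GABAergic and 94.8% in mature GABAergic cells, 20 of 22 UMIs in radial glia and 56 of 66 in Cajal-Retzius cells. It was the only Mapt isoform in 215 of the 306 cells with at least 5 Mapt UMIs. Mapt-206 was the only other isoform that reached 5% in a class, with 4 of the 66 Cajal-Retzius UMIs.

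For Map2 and Map4 no isoform held most of the UMIs, and the totals were small. Of the 201 Map2 UMIs, 25.9% were on Map2-212 and 7.96% on Map2-224, transcripts annotated with a retained intron, and this kind of transcript held 38.3% together. The 201 UMIs were 9.28% of the 2166 Illumina UMIs of Map2, so these are not shares of all its RNA. The protein-coding Map2-204, with a coding length of 5484, held 19.4%, and the short forms Map2-201 and Map2-205, with a coding length of 1401 each, 7.46% and 5.47%. Map2-218, with an annotated coding length of 106, held 17.9%. Map2-217, annotated as non-coding, held 5.97%, and Map2-214, also annotated with a retained intron, 4.48%. Map4 had 79 UMIs, of which 43.0% were on Map4-206 and 12.7% on Map4-214. Map4-205 and Map4-215 held 10.1% each, Map4-204 8.86% and Map4-212 7.59%. Both genes failed the filter on low counts in the test of usage described next, and without the filter neither was called in any of the 6 class comparisons (edgeR diffSpliceDGE adjusted p 0.863 to 1 for Map2 and 0.131 to 1 for Map4).

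The less used Map1b-206, chosen for mention after its values were seen, is annotated as non-coding, with 2150 bases and a start inside the gene. It held 68 UMIs, 0.729%, over all classes. Its share was 17 of 5332 UMIs in mature glutamatergic cells (0.319%, 0.186 to 0.510), 19 of 822 in mature GABAergic cells (2.31%, 1.40 to 3.59) and 6 of 195 in radial glia (3.08%, 1.14 to 6.58), where all 6 came from the larger aliquot and 0 of 44 UMIs from the smaller one. In mature glutamatergic and mature GABAergic cells both aliquots had it, with 5 of 769 and 12 of 4563 and with 3 of 151 and 16 of 671 UMIs.

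Usage was tested with edgeR's diffSpliceDGE over the 673 genes with at least 2 isoforms that passed the filter on low counts, among them Map1b, Stmn1 and Stmn4. Of these 3, Map1b was called between mature glutamatergic cells and radial glia (adjusted p = 0.0146), where 18.9% of all genes were called. It was also called between mature GABAergic and mature glutamatergic cells (adjusted p = 0.0119), where 1.93% were. Of these 2 mature classes, Map1b-206 reached the level of the filter only in mature GABAergic cells, where its share was higher. This call is therefore no separate support for that difference. The call was lost without the mature glutamatergic (0.248) or radial glial (0.804) cells of the larger aliquot in the first comparison, and without the mature GABAergic (0.588) or mature glutamatergic (0.609) cells of the larger aliquot in the second. It was also lost without the filter (0.105 and 0.0767) and, in the first, after clustering with all variable genes (0.208), and over 11 alternatives ranged from 0.00356 to 0.804 and from 0.000731 to 0.609. In the other comparisons 0 of the 3 genes were called, and 0 had an unadjusted p under 0.05. Of all genes, 14% were called between mature GABAergic cells and radial glia. The glutamatergic and GABAergic maturation steps had 4.31% and 0.594%, and cycling radial glia against radial glia 3.27%.

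Dcx had 4 main isoforms among 214 UMIs. Dcx-204 (coding length 1080) held 26.6%, made up of 16 of 34 UMIs in the smaller aliquot (47.1%) and 41 of 180 in the larger one (22.8%), and Dcx-203 (coding length 1095), which keeps the 15 bases printed above, 20.6%. The remaining main forms, Dcx-205 with 27.1% and Dcx-206 with 24.3%, are annotated with a retained intron, and 51.4% of the UMIs (110 of 214) were on transcripts of this kind. The 214 UMIs were 6.85% of the 3124 Illumina UMIs of Dcx, so these are not shares of all its RNA. The paper reports false priming on A-rich stretches, also in introns of partially spliced RNA. Its part in these shares was not tested.

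In Dclk1 the main isoform Dclk1-203 (7 exons, coding length 1089) held 81.1% of 529 UMIs, Dclk1-212 8.51% and the longer Dclk1-204 (17 exons, coding length 2217) 7.18%. The short Dclk1-212, whose coding sequence stands above, was found mostly in radial glia. It made up 35 of 79 Dclk1 UMIs there (44.3%, 33.1 to 55.9), 3 of 61 in cycling radial glia, 6 of 83 in immature glutamatergic, 1 of 78 in immature GABAergic cells, 0 of 123 in mature glutamatergic cells, which allows a share of up to 2.44%, and 0 of 103 in mature GABAergic cells, which allows up to 2.91%. The radial glia of the smaller aliquot had 3 of 15 UMIs (interval 4.33% to 48.1%) and those of the larger one 32 of 64 (37.2% to 62.8%), so most of them came from the larger aliquot. Overlap of the intervals does not show that the aliquots agree, and the intervals treat UMIs of 1 cell as independent. The 35 UMIs came from 17 cells with at most 6 in 1 cell, and 0 came from the 3 radial glia with at least 3 microglial markers.

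The opposite was seen for Dclk1-204 in mature glutamatergic cells, with 18 of 123 UMIs (14.6%) against 0 of 79 in radial glia, which allows up to 3.80%. Mature GABAergic cells had 3 of 103, which does not exceed what the 0 in radial glia allows. Dclk1-203 held 54.4% in radial glia, 77.2% in mature glutamatergic and 95.1% in mature GABAergic cells. When the cells were clustered with all variable genes, Dclk1-212 held 33 of 70 UMIs in radial glia (47.1%) and 4 of 23 in intermediate progenitors (17.4%).

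Dclk1 failed the filter on low counts in the usage test, so its class difference was tested only in alternatives. Without the filter, usage differed from radial glia in mature glutamatergic cells (edgeR diffSpliceDGE adjusted p = 1.8e-09, with 2.46% of all genes called) and in mature GABAergic cells (4.2e-05, with 1.11%) and was not called in cycling radial glia (adjusted p = 1, with 0.13%). Without the called doublets Dclk1 passed the filter, and all 3 differences were called (6.5e-06, 1.0e-05 and, with 3.68% of all genes called, 0.0153). It also passed the filter in 11 of the fits that left out 1 sum, where the cycling difference was not called without the cycling radial glia of the smaller (0.0577) or of the larger aliquot (0.460). Without the radial glia of the larger aliquot Dclk1 could not be tested. The short isoform of Dclk1 reached the level of the filter only in radial glia, where its share was higher. The calls in fits where Dclk1 passed the filter are therefore no separate support for that difference. The fit without the filter does not have this limit.

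**Figure D4:**
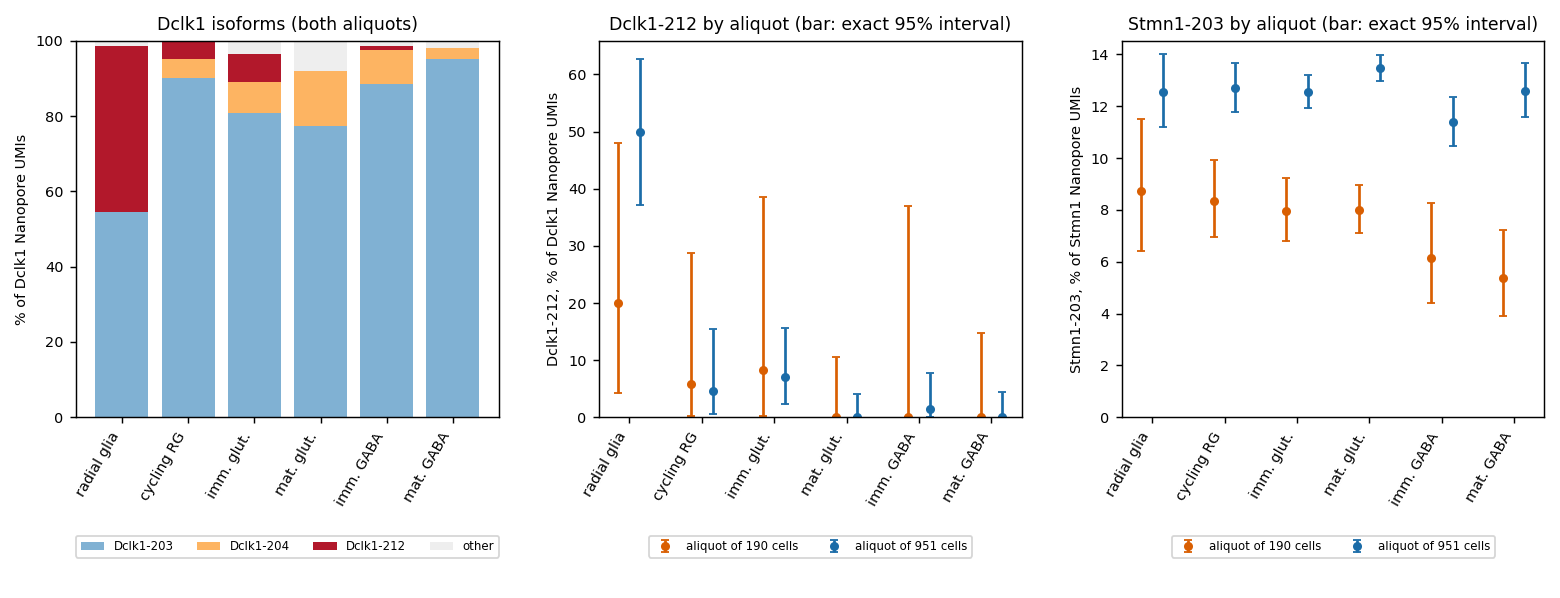
Left, share of the Dclk1 Nanopore UMIs held by each isoform in each class; middle and right, share of Dclk1-212 and of Stmn1-203 by class, with 1 point per aliquot and exact 95% binomial intervals. Dclk1-212 reaches 3 of 15 and 32 of 64 UMIs in radial glia and 0% in mature glutamatergic and mature GABAergic cells. Stmn1-203 is lower in the smaller aliquot in every class drawn. Cajal-Retzius cells are not drawn.

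Among the stathmins, Stmn2 and Stmn3 had 1 isoform each in practice: Stmn2-201 held 99.9% of 14940 UMIs, and Stmn3-201 all of 7906 as the single isoform listed. Stmn2-201 was the only one in 245 of the 254 cells with at least 20 Stmn2 UMIs. Stmn1-201 held 46945 (87.7%) and Stmn1-203 held 6417 of 53509 UMIs. The latter starts 1422 bases downstream, at a first exon at chr4:134469742-134470175, and has the same coding length of 447.

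The Stmn1-203 share was lower in the smaller aliquot. It was 7.78% (7.24 to 8.36) in the smaller and 12.8% (12.5 to 13.1) in the larger aliquot, and it was lower in the smaller aliquot in 7 of 7 classes, which ranged from 5.38% to 11.7% there and from 11.4% to 14.0% in the larger one. Mature glutamatergic cells had 8.01% and 13.5%, and radial glia 8.72% and 12.6%. No class difference was called (edgeR diffSpliceDGE adjusted p 0.704 to 0.945). In the 954 cells with at least 20 Stmn1 UMIs the median share was 11.4% (quartiles 7.25 and 15.4), and 927 of them held at least 1 UMI of Stmn1-203.

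Stmn4 used several isoforms side by side. Stmn4-201 (coding length 567) held 78.1% of 3708 UMIs, Stmn4-203 with the 81-base exon (coding length 648) 13.5% (12.5 to 14.7) and Stmn4-202 with the other coding end (coding length 528) 5.74% (5.02 to 6.54). Stmn4-203 had 35 of 274 and 203 of 1556 UMIs in the mature glutamatergic cells of the smaller and the larger aliquot, and 7 of 54 and 31 of 176 in mature GABAergic cells. Stmn4-202 had 4.70% in mature glutamatergic, 6.36% in immature glutamatergic, 6.55% in immature GABAergic, 6.96% in mature GABAergic cells and 11.2% in cycling radial glia. None of the 6 class comparisons called Stmn4 (adjusted p 0.740 to 0.949). Of the 300 cells with at least 5 Stmn4 UMIs, 204 had at least 1 UMI of Stmn4-203 and 116 at least 1 of Stmn4-202.

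Other genes of the microtubule machinery were counted in the same fit. Between mature glutamatergic cells and radial glia, 14 of 25 tested structural and plus-end proteins were higher (56%) and 2 lower (8%), where 16.5% of all genes were higher and 17.6% lower. Among the higher were Camsap3, which binds microtubule minus ends, at log2 3.17, Map9 at 2.34 and Map6, a stabiliser of cold-resistant microtubules, at 2.32, and the lower ones were Nde1 at -4.997 and Tppp3 at -3.74. Of 15 tested kinases that act on these proteins and collapsin response mediators, which bind tubulin in growth cones, 9 were higher (60%) and 0 lower, led by Crmp1 (3.22), Dpysl3 (3.03) and Mapk10 (2.73). Of 15 tested enzymes that modify tubulin or sever microtubules 7 were higher (46.7%), among them Vash2 (2.88), Ttll7 (2.47) and Agtpbp1 (2.37), and 2 lower (13.3%), Fignl1 (-3.18) and Katna1 (-1.10). Of 11 tested spindle proteins 0 were higher and 10 lower (90.9%), with Hmmr at -6.49, Aspm at -6.20 and Tacc3 at -5.99. The medians of these lists were 0.81, 1.00, 0.87 and -5.45, beside 2.46 for the 10 genes and -0.03 for all genes.

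In mature GABAergic cells the same lists had 11 higher and 3 lower, 7 and 0, 7 and 1, and 0 and 10, where 15.1% of all genes were higher and 16.5% lower. As shares of the tested members these were 44% and 12%, 46.7% and 0%, 46.7% and 6.67%, and 0% and 90.9%. Between cycling radial glia and radial glia, 7 of the spindle proteins were higher and 0 lower. The counts were 1 and 2 for the structural and plus-end proteins, 4 and 1 for the kinases and response mediators and 0 and 1 for the modifying enzymes. As shares these were 63.6% and 0%, 4% and 8%, 26.7% and 6.67%, and 0% and 6.67%, beside 6.16% and 5.27% of all genes. The 8 markers that named the cycling class were proliferation genes.

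The genes whose level followed each of the 10 most closely were found by correlating log2(CPM + 10) over the 14 sums of 7 classes and 2 aliquots, among 3046 genes with a mean of at least 50 CPM. The sums share cells of 1 suspension, and those of 1 aliquot share libraries. Mapt was most like Ywhag (r = 0.964), Rtn1 (0.959) and Rab3a (0.955), Map2 like Tmem35 (0.952), Podxl2 (0.951) and Gm1673 (0.943), and Map1b like Gm1673 (0.970), Nsg1 (0.955) and Aplp1 (0.954). Map4 was most like Bin1 (0.897), 2610524H06Rik (0.889) and Herc2 (0.870). Dcx was most like Mir124-2hg (0.969), the host of a neuronal miRNA, Dbn1 (0.964) and Zfp57 (0.944). Dclk1 was most like Lcmt1 (0.879), Plk2 (0.872) and Atp5a1 (0.865), so its closest genes and those of Map4 followed less closely than those of the other 8. Stmn1 was most like Hn1 (0.961), Shtn1 (0.946) and Cd24a (0.934), and Stmn2 like Tubb3 (0.971), a neuronal tubulin, Tmsb10 (0.953) and Nsg1 (0.935). Stmn3 was most like Nsg1 (0.965), PISD (0.960) and Ina (0.957), and Stmn4 like Sh3bp5 (0.953), Tuba1a (0.951), an alpha-tubulin, and Ube2d1 (0.933).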

How the data were processed

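Illumina UMI counts per gene were made by the authors with Cell Ranger 2.0 on mm10, and Nanopore UMI counts per isoform with minimap2 and Sicelore, on the same assembly, from the UMIs that matched a Gencode exon structure. The deposited counts are raw. Here, Nanopore gene counts are sums over isoforms. Cells were clustered with Seurat 5.3.0 (2000 variable genes, 11 dimensions, resolution 0.8), after leaving out 83 genes. A cluster took the class with the highest mean log2 fold of its markers (on CPM + 10), given 3 markers in 10% of its cells at a log2 fold of 0.5 and a lead of 0.2 over the next class. Doublets were called with Scrublet in scanpy 1.11.5 and kept, apart from an alternative without them. Markers of 6 other cell types were summed per class, those of choroid plexus, endothelium and oligodendrocyte precursors among them (at most 161 CPM in the glial and glutamatergic classes). Sums per class and aliquot entered edgeR 4.0.16 under R 4.3.3 (TMM, filterByExpr, robust quasi-likelihood fit and F test; diffSpliceDGE for usage; adjusted p under 0.05), 12 sums with 116661 to 2705973 Illumina and 64641 to 1590180 Nanopore UMIs, and DESeq2 1.42.0 was an alternative. The tests were tested on simulated data.

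Classes of 1 aliquot deviated together from the class means (r 0.168 to 0.363, median 0.244 over 15 pairs of classes; 0.597 between platforms), and the aliquot number marks shared libraries, so fits with the aliquot as a block (for the platform difference in fold also class and aliquot) are given where they change a call. The members, gene lists, thresholds for class names and comparisons were chosen with earlier results of these data known, and the tests of the difference between maturation steps and between platforms and the fits without shared barcodes or microglial-marker cells were added after the data had been seen. Named were all 10 genes, isoforms with at least 5% of a gene's UMIs overall or in a class with at least 20 UMIs, the genes most like each member, and up to 3 called genes per list and direction; Map1b-206 is outside this rule. Left out were cells under 1400 genes and, from tests, Cajal-Retzius cells. Exact binomial intervals (95%) and limits for a count of 0 (3 counts) cover counting error only. Protein sequences were not used here. One item of sequence is not reported here.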

Additional observations from a re-analysis of the deposited data

Results flagged for a closer look

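A pair of results stood out because the contrast of mature and immature classes differed between glutamatergic and GABAergic cells. For the GABAergic classes, stage and neuron type cannot be told apart. The maturation step of Map1b was lower in GABAergic than in glutamatergic cells by -1.06 on the log2 scale, and that of Dcx was higher by 1.03; both differences passed the test of the difference itself in edgeR, as given above with their errors. The first was called in 15 and the second in 11 of 17 alternatives. After clustering with all variable genes neither was called (edgeR adjusted p = 0.0781 and 0.0513). That clustering gave some immature glutamatergic and mature GABAergic cells another class. Among the 17 are fits without a sum of radial glia or cycling radial glia, which are not in this contrast. Both genes were called in each of those fits. Neither DESeq2 nor a fit without the filter on low counts was among the 17. This test was added after the data had been seen.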

How the results depend on the processing

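The level and platform values of the 10 genes were recomputed under 914 combinations of value and alternative: 807 kept direction and side of the threshold, 48 gained a call, 38 lost one and 21 changed sign. None of the values that changed sign was called. With the replicate block the numbers of genes called were 7 for mature against immature glutamatergic cells and 2 for the GABAergic pair, and it changed no call of isoform usage; the calls it added are given above. The glutamatergic step had 4 calls with DESeq2 size factors, without doublets and on Nanopore counts. The GABAergic step had 2 with DESeq2 size factors and 0 with DESeq2's Wald test and on Nanopore counts, and the comparison of the mature classes 2 with the Wald test. Isoform usage gave, against radial glia, 2 (mature glutamatergic), 1 (mature GABAergic) and 1 (cycling) without doublets, 0 for mature glutamatergic cells at resolution 1.2 or after clustering with all genes, and 1 for mature GABAergic cells without the filter; between the mature classes it gave 0 without the filter and at resolution 1.2, where Map1b failed the filter and was not tested. Without single sums or libraries the counts were 8 to 9 (mature glutamatergic against radial glia), 9 (mature GABAergic against radial glia), 2 to 5 and 0 to 2 (maturation steps), 1 to 8 (mature classes), 3 to 6 (cycling) and 8 to 9 (platforms), and for usage 0 to 2, 0 to 1, 0, 0, 0 to 1 and 0 to 1 in the same order. A lone sum left in a class was assumed to vary like the others. The shares of all genes called in these fits are not given, so the numbers of calls are not read as results about the 10 genes.

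The changed signs were, between platforms, Mapt at -0.0088 and Map1b at -0.0044 without Illumina 190, and -0.043 and -0.022 without Nanopore 951 (highest without 1 library 0.26 and 0.28). For mature against immature GABAergic cells Map1b was 0.050 after clustering with all genes, 0.22 on Nanopore counts, 0.00052 without shared barcodes, and -0.18 to 0.16 without single sums (0.0090 without the mature cells of 190), and Map4 was 0.084 at resolution 1.2, 0.055 without shared barcodes and -1.08 to 0.28 (0.21 without the mature cells of 190). Mapt in cycling radial glia against radial glia was -0.064 after clustering with all genes and -0.51 to 0.74 without single sums (-0.30 without the cycling cells of 951). On Nanopore counts Dclk1 in mature glutamatergic cells against radial glia was -0.39, and Map2 between mature and immature glutamatergic cells -0.060. Map2 between the mature classes was -0.070 to 0.28 without single sums (-0.027 without GABAergic 190), and Map4 in mature GABAergic cells against radial glia -0.65 to 0.73. The cause was not tested. Depth limits Map2, Map4, Dcx and Dclk1 most, with 201, 79, 214 and 529 Nanopore UMIs.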
